A study of Homo sapiens with 4 samples.

Results

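Ribosome biogenesis and nucleolar genes were followed through 4 RNA-seq libraries of Jurkat T cells treated with the BET inhibitor JQ1, with the lectin PHA, or with both. The set holds 50 genes, chosen by name as factors of rRNA processing and nucleolar assembly of the kind usually counted among the targets of the transcription factor MYC, and all 50 were found among the 50868 genes of the deposited files. All 50 also passed the filter on low values, set at an FPKM of 1 averaged across the 4 libraries, which 11503 genes passed. Jurkat is an established human T-cell leukemia line, labelled as wild type T lymphoblasts. The groups were the solvent DMSO, JQ1 at 0.5 μM, and each of these together with PHA at 150 ng/ml, and all cells were harvested after 24 h. JQ1 displaces the BET proteins from acetylated chromatin, and PHA (phytohemagglutinin) activates T cells through their surface receptors. Each condition was 1 library, so differences between conditions had no replicate check and no test was made. Counts per library summed to between 18620954 and 19685401. All 8 T-cell markers examined reached an FPKM of 1, with a summed FPKM of 363 and 426 in the DMSO libraries without and with PHA and 252 and 260 in the JQ1 libraries. The 4 myeloid markers summed to between 0.0433 and 0.155. Of 3 B-cell markers only CD79A reached 1 FPKM, in a list summed at 7.496 and 6.338 in the DMSO libraries and 1.06 and 1.01 in the JQ1 libraries, while MS4A1 and PAX5 stayed below 1 in every library. Of 4 epithelial and stromal markers, summed at 0.377 to 0.675, EPCAM, KRT19 and COL1A2 were listed at 0. The part of these markers in the results was not tested.

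Ribosomes are built in the nucleolus, where RNA polymerase I transcribes the rDNA into a long precursor of the 18S, 5.8S and 28S rRNAs. Small nucleolar ribonucleoproteins (snoRNPs) modify that precursor at positions set by their guide RNAs, and a large assembly called the small subunit processome folds and cleaves it. The pre-40S and pre-60S particles then mature along separate routes with their own helicases, GTPases and scaffold proteins before export to the cytoplasm. Growing and dividing lymphocytes spend much of their transcription on this pathway.

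Nearly the whole set was lower with JQ1. For each gene the log2 ratio of FPKM was taken after 0.1 was added to both values, and a gene was counted as lower or higher when it differed by at least 2-fold. Between the JQ1 and the DMSO libraries, 32 of 50 members fell at least 2-fold, against 8.65% of all genes tested, and 0 rose, against 5.22%. The median log2 ratio of the members was -1.14, or 2.21-fold lower, where that of all genes was -0.01. At 1.5-fold, 43 members were lower, against 19.3%, and the 7 that did not reach it were UBTF, NOP58, UTP3, UTP6, IMP3, DDX18 and NOC2L. All 50 ratios lay below 0, as did 50.8% of all genes, although that of UTP6, -0.03, turned positive under another scaling. In 49 members the 95% exact counting interval of the ratio of count shares lay wholly below 0, against 38.7%, and the exception was UTP6. These intervals cover counting error only, not the spread between cultures.

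In the PHA-treated pair of libraries, 22 members fell at least 2-fold with JQ1, against 8.00% of all genes, and 0 rose, against 3.69%. The median log2 ratio was -0.97, or 1.96-fold lower, beside -0.02 for all genes. The count at 1.5-fold was 39, against 17.8%, and 49 ratios lay below 0, against 51.5%. The counting interval lay below 0 for 49 members, against 38.2%, with UTP6 again the exception. All 22 members lower by 2-fold with PHA were also lower by 2-fold without it, and 5.42% of all genes were lower by 2-fold in both comparisons. In 49 members both JQ1 libraries had a lower FPKM than both DMSO libraries, which held for 38.5% of all genes, so UTP6 was the single member whose levels overlapped. The plot of cumulative distributions sets the members beside all genes.

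**Figure D1:**
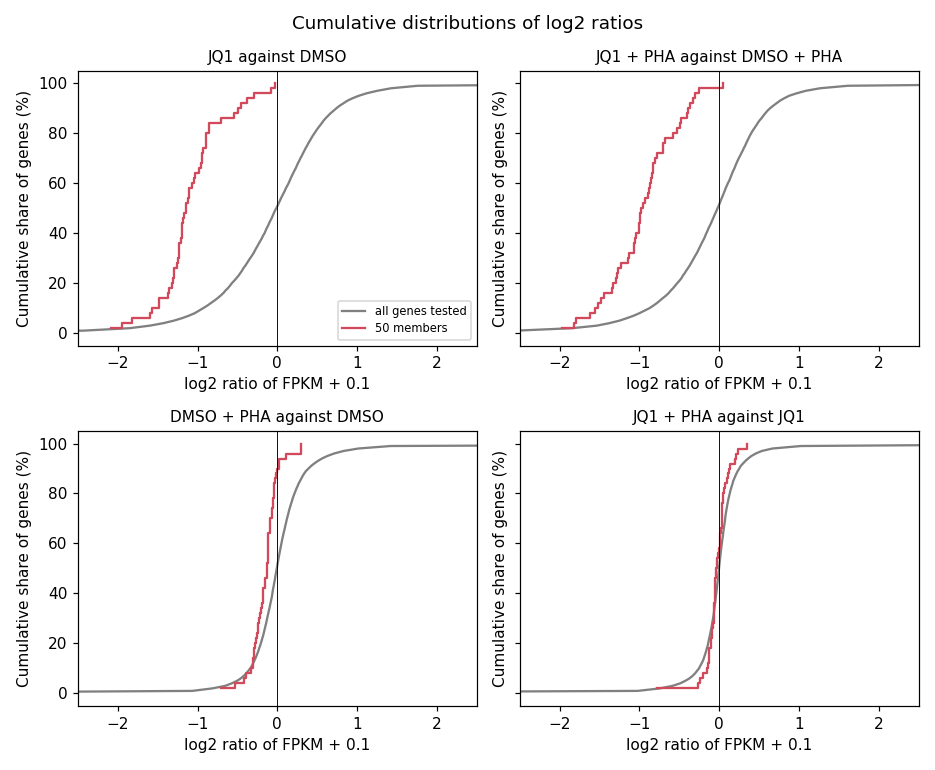
Cumulative share of genes (%, vertical axis) by log2 ratio of FPKM + 0.1 (horizontal axis) in 4 comparisons, for the 50 members (red steps) and the 11503 genes tested (grey line, drawn from its percentiles). In both JQ1 comparisons the members lie to the left of all genes, with medians of -1.14 and -0.97, while in the PHA comparisons their medians are -0.13 and -0.03.

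As a share of all counts in a library, the 50 members together took 1.30% with DMSO (95% Clopper-Pearson interval 1.30% to 1.31%) and 0.637% with JQ1 (0.634% to 0.641%). With PHA the shares were 1.16% (1.15% to 1.16%) and 0.634% (0.630% to 0.637%). NCL and NPM1 alone accounted for 0.494% and 0.419% of all counts in the DMSO libraries, without and with PHA, and 0.235% and 0.234% in the JQ1 libraries. The other 48 members summed to 0.809% and 0.740%, and to 0.402% and 0.3996%, so the lower total did not rest on the most abundant pair. The 2 JQ1 libraries differed by less in this share than the 2 DMSO libraries. In bulk RNA, fewer cells that express a gene and less of its RNA per cell cannot be told apart, and shares of counts do not measure the total RNA of a cell.

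The promoters of many members carried the E-box CACGTG, the hexamer bound by MYC and other basic helix-loop-helix factors. The stretches around it are shown because genes of this kind are usually counted among MYC targets. RefSeq windows on GRCh38.p14 from 250 bases before to 50 bases after the start of transcription were at hand for 43 members, 52 in all. BOP1, RRP12, NOLC1, RRS1, NOP58, DDX18 and TCOF1 had none. CACGTG reads the same on both strands, was the only motif searched, and was found in 22 of these 43 members, or 51.2%. A gene with several windows counted when any of them held the motif. Among 7630 tested genes with a window 13.1% held it, and among all 27305 genes with a window 8.77% did. The members were chosen as genes usually counted among MYC targets, so the choice itself favours a high share and the contrast is no separate result. The 26 matches in members lay upstream of the start in 11 cases and downstream in 15. Below are 30-base stretches, 5′ to 3′ on the strand of the gene, for the members with a motif and the lowest mean log2 ratio over both JQ1 comparisons, and for FBL, which is taken up again under PHA. Capitals mark the E-box.
MYBBP1A, chr17:4555340-4555369, minus strand: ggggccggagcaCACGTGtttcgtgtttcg
DDX21, chr10:68956604-68956633, plus strand: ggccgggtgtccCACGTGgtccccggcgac
BYSL, chr6:41921515-41921544, plus strand: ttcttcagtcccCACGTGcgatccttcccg
WDR43, chr2:28894658-28894687, plus strand: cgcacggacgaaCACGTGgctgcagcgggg
LYAR, chr4:4290068-4290097, minus strand: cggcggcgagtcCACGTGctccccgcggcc
LTV1, chr6:143843354-143843383, plus strand: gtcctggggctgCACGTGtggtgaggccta
GAR1, chr4:109815781-109815810, plus strand: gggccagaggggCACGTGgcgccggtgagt
PNO1, chr2:68157885-68157914, plus strand: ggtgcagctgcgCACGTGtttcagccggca
FBL, chr19:39846356-39846385, minus strand: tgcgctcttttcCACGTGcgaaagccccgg
In these the first base of the E-box stood at position 28 in MYBBP1A, -31 in DDX21, 29 in BYSL, 4 in WDR43, -64 in LYAR, 29 in LTV1, 32 in GAR1, 10 in PNO1 and 7 in FBL, counted from 1 at the first transcribed base and from -1 upstream of it. DDX21, GAR1 and LYAR have another RefSeq start, in whose window no match was found. The positions refer to the RefSeq start of the window shown. The deposited loci begin upstream of it by 519 bases in DDX21, 311 in BYSL, 252 in GAR1, 247 in MYBBP1A, 148 in LYAR, 44 in PNO1, 35 in FBL and 24 in WDR43, while that of LTV1 begins downstream of it. In UTP20 the motif ends just short of the start, as the 100 bases before it show.
UTP20, chr12:101280005-101280104, plus strand: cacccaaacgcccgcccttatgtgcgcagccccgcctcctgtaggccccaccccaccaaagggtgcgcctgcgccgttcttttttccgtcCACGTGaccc
The 22 members with the motif had median log2 ratios of -1.22 (JQ1 against DMSO) and -1.07 (JQ1 + PHA against DMSO + PHA), and the 21 without it -0.98 and -0.86. The means over both comparisons ran from -1.56 to -0.70 with the motif and from -1.95 to 0.01 without it, so the ranges overlapped. NOP16, among the lowest of all members, had no CACGTG in its window, and UTP6, UBTF, UTP3 and IMP3, which are among the highest, had none either. A match of these letters is a description of the sequence and says nothing of which factor was bound.

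The plot of FPKM by library shows the separation for each gene, and the following paragraphs take the members by their roles, with the log2 ratios of FPKM first without and then with PHA.

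**Figure D2:**
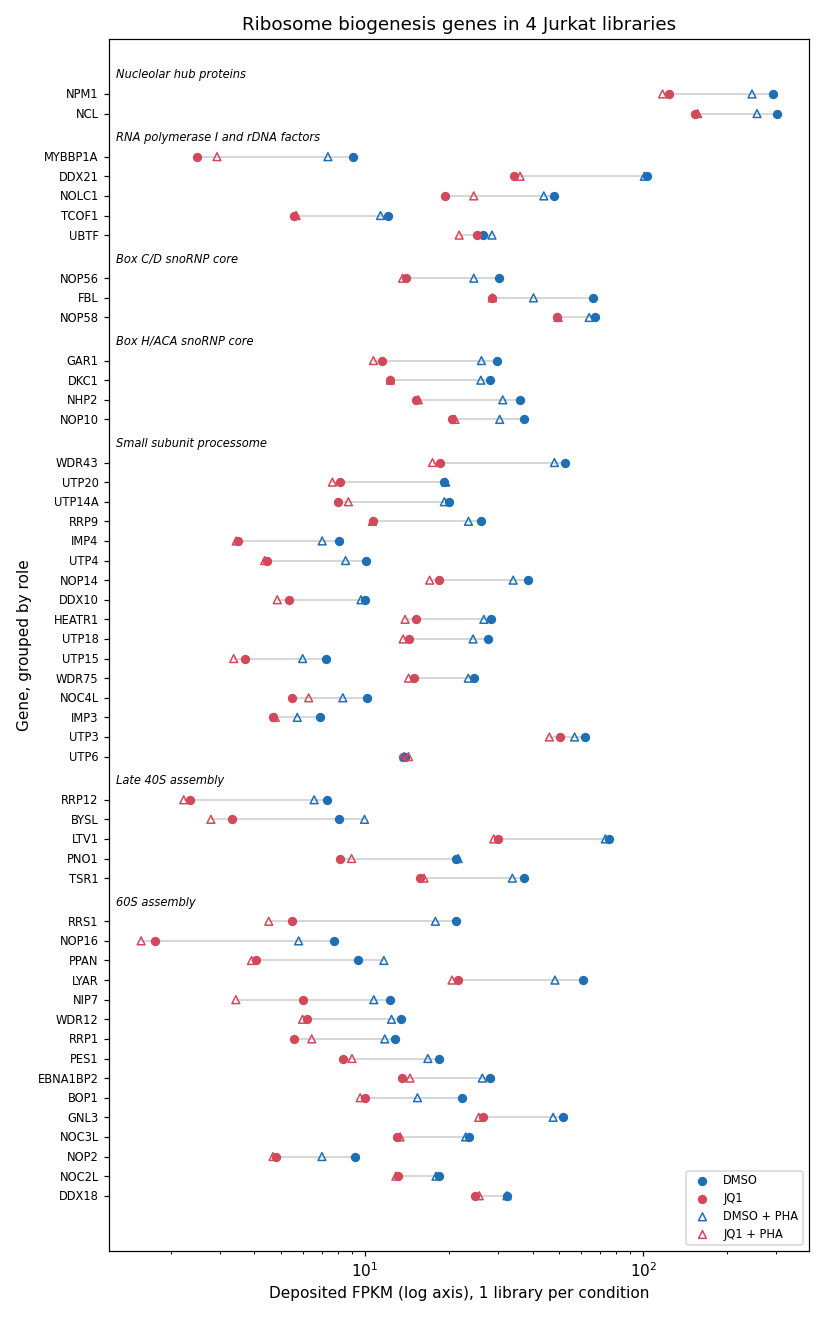
Deposited FPKM (horizontal, log axis) of the 50 members, grouped by role and ordered within a role by mean JQ1 ratio, in the 4 libraries (filled circles without PHA, open triangles with PHA, blue DMSO, red JQ1). In every member but UTP6 both red symbols lie to the left of both blue ones.

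NCL and NPM1, the abundant nucleolar proteins nucleolin and nucleophosmin, carried the highest levels. Nucleolin binds RNA and chromatin in the nucleolus, and nucleophosmin is a chaperone for histones and ribosomal proteins. NCL (ENSG00000115053, chr2:231453531-231483641) was at 302 and 257 FPKM in the DMSO libraries without and with PHA and 153 and 157 in the JQ1 libraries. NPM1 (ENSG00000181163, chr5:171387116-171411137) had 292 (DMSO), 124 (JQ1), 246 (DMSO + PHA) and 117 (JQ1 + PHA) FPKM. The log2 ratios of NPM1 were -1.24 without and -1.07 with PHA, past 2-fold in both. Those of NCL were -0.98 and -0.71, just short of 2-fold without PHA, although both its JQ1 levels lay well below both DMSO levels. As CPM per kb of merged exon in GENCODE 44, a scale that depends on the exons annotated, NCL (mean level 244) and NPM1 (154) stood above NOLC1 (85.8), FBL (83.9) and NOP58 (80.6). At the other end were UTP15 (8.27), RRP12 (6.43) and DDX10 (4.39). The place of DDX10 goes with its merged exon length of 18059 bases, where its counts and FPKM imply 10629. By mean FPKM, DDX10 (7.45) stood above UTP15 (5.07) and RRP12 (4.60), so the order of members depended on the length used.

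Of the 5 factors of the rDNA and RNA polymerase I, 4 fell at least 2-fold without PHA and 2 with it, and the median log2 ratios were -1.30 and -0.996. MYBBP1A (ENSG00000132382, chr17:4538897-4555631), a nucleolar protein that binds MYB and acts in rDNA transcription, was at 9.07 and 7.35 FPKM in the DMSO libraries without and with PHA and 2.48 and 2.93 in the JQ1 libraries. Its log2 count ratio was -1.87 (-2.004 to -1.74) without PHA, where the bounds are the 95% counting interval, and -1.33 (-1.46 to -1.20) with PHA. The intervals of the comparisons did not overlap, and the smaller difference was the one with PHA. DDX21 (ENSG00000165732, chr10:68956128-68985073), an RNA helicase of both rDNA transcription and rRNA processing, had 103 (DMSO), 34.4 (JQ1), 101 (DMSO + PHA) and 36.1 (JQ1 + PHA) FPKM. This was 2.98-fold lower without PHA and 2.79-fold lower with it. TCOF1 (treacle) and NOLC1 (Nopp140) are partner phosphoproteins that link the polymerase with the modifying snoRNPs. TCOF1 was at 12.1 and 11.4 FPKM in the DMSO libraries without and with PHA and 5.53 and 5.65 in the JQ1 libraries, at least 2-fold lower without PHA and just short of it with PHA (-0.996, or -1.01 as the ratio of counts). NOLC1 (ENSG00000166197, chr10:102152176-102163871) had 47.6 (DMSO), 19.3 (JQ1), 43.9 (DMSO + PHA) and 24.6 (JQ1 + PHA) FPKM, and its JQ1 library with PHA stood above that without. UBTF (ENSG00000108312, chr17:44205033-44221626), the HMG-box factor that opens rDNA to the polymerase, was the exception among the 5. It was at 26.6 and 28.6 FPKM in the DMSO libraries without and with PHA and 25.2 and 21.8 in the JQ1 libraries, with log2 count ratios of -0.08 (-0.13 to -0.02) and -0.39 (-0.45 to -0.34).

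Box C/D snoRNPs place 2′-O-methyl groups on rRNA, and their core proteins did not move as one. The methyltransferase FBL (fibrillarin, ENSG00000105202, chr19:39834458-39846414) was at 66.1 (DMSO), 28.6 (JQ1), 40.3 (DMSO + PHA) and 28.7 (JQ1 + PHA) FPKM. The JQ1 levels were alike, and the DMSO levels were not, so the log2 count ratio was -1.21 (-1.28 to -1.14) without PHA and -0.49 (-0.57 to -0.42) with it. The scaffold protein NOP56 (ENSG00000101361, chr20:2652145-2658393) had 30.4 and 24.6 FPKM in the DMSO libraries without and with PHA and 13.99 and 13.6 in the JQ1 libraries. Its paralogous partner NOP58 (ENSG00000055044, chr2:202265716-202303666) had 66.9 (DMSO), 48.9 (JQ1), 64.0 (DMSO + PHA) and 49.5 (JQ1 + PHA) FPKM. The log2 ratios of NOP56 were -1.11 and -0.85, and those of NOP58 -0.45 and -0.37, with counting intervals of -1.17 to -1.06 against -0.51 to -0.40 without PHA. SNU13 (ENSG00000100138), the remaining core protein, which also binds U4 snRNA in the spliceosome, is no member of the set and stands in the list of other factors below. It was at 18.9 (DMSO), 4.09 (JQ1), 15.9 (DMSO + PHA) and 10.5 (JQ1 + PHA) FPKM, the lowest level being that of JQ1 without PHA. Its log2 count ratios were -2.21 (-2.34 to -2.08) and -0.60 (-0.70 to -0.51). FBL, NOP56 and SNU13 fell at least 2-fold without PHA, NOP58 in neither comparison, and no core C/D protein did with PHA.

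Box H/ACA snoRNPs convert uridine to pseudouridine. Of their 4 core proteins, 3 fell at least 2-fold in each comparison, and the median log2 ratios were -1.22 and -1.04. The pseudouridine synthase DKC1 (dyskerin, ENSG00000130826, chrX:154762742-154777689) was at 28.2 and 26.1 FPKM in the DMSO libraries without and with PHA and 12.3 and 12.3 in the JQ1 libraries. GAR1 (ENSG00000109534, chr4:109815510-109824740) had 29.8 (DMSO), 11.5 (JQ1), 26.2 (DMSO + PHA) and 10.7 (JQ1 + PHA) FPKM, and NHP2 (ENSG00000145912, chr5:178149460-178153967) had 36.2 and 31.3 FPKM in the DMSO libraries without and with PHA and 15.2 and 15.5 in the JQ1 libraries. In all 3 both JQ1 libraries lay far below both DMSO libraries. With PHA NHP2 only just passed 2-fold, at a log2 ratio of -1.005 and a log2 count ratio of -1.01 (-1.12 to -0.90). NOP10 (ENSG00000182117, chr15:34341713-34343177), the smallest core protein, had 37.3 (DMSO), 20.5 (JQ1), 30.5 (DMSO + PHA) and 21.0 (JQ1 + PHA) FPKM. Its log2 count ratios were -0.86 (-1.04 to -0.68) and -0.53 (-0.72 to -0.35), and these intervals did not overlap those of the other 3 core proteins in either comparison.

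The small subunit processome had 16 members in the set, of which 7 fell at least 2-fold without PHA and 5 with it, with median log2 ratios of -0.95 and -0.94. Without PHA its log2 ratios ran from -1.48 (WDR43) to -0.03 (UTP6). In the UTP-A subcomplex, which binds the nascent precursor first, WDR43 was at 52.2 and 48.0 FPKM in the DMSO libraries without and with PHA and 18.6 and 17.5 in the JQ1 libraries, a fall of 2.79-fold and 2.73-fold. UTP4, UTP15, HEATR1 and WDR75, of the same subcomplex, had log2 ratios of -1.17, -0.96, -0.90 and -0.71 without PHA and -0.95, -0.81, -0.94 and -0.71 with it, so only UTP4 joined WDR43 past 2-fold, and without PHA only. UTP4 had 10.1 (DMSO), 4.43 (JQ1), 8.51 (DMSO + PHA) and 4.35 (JQ1 + PHA) FPKM, and HEATR1, the largest of the subcomplex, had 28.5 and 26.7 FPKM in the DMSO libraries without and with PHA and 15.2 and 13.9 in the JQ1 libraries. In the UTP-B subcomplex the 2 members differed. UTP18 was at 27.7 (DMSO), 14.4 (JQ1), 24.4 (DMSO + PHA) and 13.7 (JQ1 + PHA) FPKM. UTP6 (ENSG00000108651, chr17:31860899-31901765) had 13.96 and 13.8 FPKM in the DMSO libraries without and with PHA and 13.7 and 14.3 in the JQ1 libraries. The intervals of the log2 count ratio were -1.05 to -0.84 for UTP18 and -0.11 to 0.06 for UTP6 without PHA, and with PHA -0.95 to -0.73 and -0.04 to 0.14.

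Proteins tied to the U3 snoRNP, which base-pairs with the precursor, were RRP9, IMP3 and IMP4. RRP9 was at 26.2 (DMSO), 10.7 (JQ1), 23.5 (DMSO + PHA) and 10.6 (JQ1 + PHA) FPKM. IMP4 had 8.08 and 7.01 FPKM in the DMSO libraries without and with PHA and 3.50 and 3.44 in the JQ1 libraries, and like RRP9 it fell at least 2-fold in both comparisons. With PHA IMP4 only just did, at a log2 ratio of -1.006. IMP3 (ENSG00000177971, chr15:75639085-75648706) had 6.86 (DMSO), 4.68 (JQ1), 5.70 (DMSO + PHA) and 4.75 (JQ1 + PHA) FPKM. Its counts were low (493, 352, 429 and 338 in the same order), and its log2 count ratios were -0.55 (-0.75 to -0.35) and -0.26 (-0.47 to -0.05). Among the remaining processome factors UTP20, a very large scaffold protein, had 19.3 and 19.5 FPKM in the DMSO libraries without and with PHA and 8.14 and 7.63 in the JQ1 libraries. UTP14A, which works with the helicase that releases U3, had 20.1 (DMSO), 8.02 (JQ1), 19.3 (DMSO + PHA) and 8.71 (JQ1 + PHA) FPKM. Both fell at least 2-fold with and without PHA. NOP14 had 38.6 and 34.1 FPKM in the DMSO libraries without and with PHA and 18.4 and 17.1 in the JQ1 libraries and was past 2-fold without PHA only (-1.07 and -0.99), and its partner NOC4L had log2 ratios of -0.89 and -0.40. The helicase DDX10 had log2 ratios of -0.90 and -0.99. UTP3 (ENSG00000132467, chr4:70688479-70690551), the human Sas10, was at 61.8 (DMSO), 50.3 (JQ1), 56.7 (DMSO + PHA) and 46.0 (JQ1 + PHA) FPKM, with log2 ratios of -0.29 and -0.30, alike in both comparisons and small.

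Late 40S assembly was the group in which every member fell. All 5 genes were at least 2-fold lower in both comparisons, with median log2 ratios of -1.31 and -1.33. RRP12 (ENSG00000052749, chr10:97356358-97426076), a HEAT-repeat protein of pre-40S maturation and export, was at 7.27 and 6.55 FPKM in the DMSO libraries without and with PHA and 2.34 and 2.23 in the JQ1 libraries. LTV1, which must leave the pre-40S particle before it can translate, had 75.2 (DMSO), 30.2 (JQ1), 73.1 (DMSO + PHA) and 29.0 (JQ1 + PHA) FPKM. PNO1, the RNA-binding partner of the 18S end nuclease, had 21.2 and 21.6 FPKM in the DMSO libraries without and with PHA and 8.14 and 8.94 in the JQ1 libraries. Their values formed tight pairs, the JQ1 libraries with one another and the DMSO libraries with one another, whatever the PHA. TSR1, a GTPase-like pre-40S factor, had 37.1 (DMSO), 15.8 (JQ1), 33.9 (DMSO + PHA) and 16.3 (JQ1 + PHA) FPKM. BYSL (ENSG00000112578, chr6:41921188-41933046), the protein bystin, had 8.08 and 9.95 FPKM in the DMSO libraries without and with PHA and 3.32 and 2.79 in the JQ1 libraries. In BYSL the level with PHA was the higher one in DMSO-treated cells and the lower one in JQ1-treated cells, where the counting interval held 0, and the fall with JQ1 was 2.39-fold without PHA and 3.48-fold with it.

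The 15 genes of 60S assembly held both the steepest and some of the smallest differences. Of them 10 fell at least 2-fold without PHA and 6 with it, and the median log2 ratios were -1.11 and -0.89. RRS1 (ENSG00000179041, chr8:66429028-66430733), which brings the 5S particle into the pre-60S, was at 21.3 (DMSO), 5.45 (JQ1), 17.9 (DMSO + PHA) and 4.50 (JQ1 + PHA) FPKM. NOP16 (ENSG00000048162, chr5:176383938-176388975), an early 60S factor, had 7.75 and 5.76 FPKM in the DMSO libraries without and with PHA and 1.75 and 1.56 in the JQ1 libraries. The log2 count ratios of RRS1 were -1.97 (-2.21 to -1.73) and -1.99 (-2.26 to -1.73), and those of NOP16 were -2.15 (-2.35 to -1.95) and -1.88 (-2.11 to -1.66). By the mean of both log2 FPKM ratios RRS1 (-1.96) and NOP16 (-1.95) were the lowest members, and MYBBP1A (-1.56), RRP12 (-1.56) and DDX21 (-1.53) came next. The intervals of RRS1 and NOP16 overlapped in both comparisons, so their order was not resolved at this depth (684, 183, 601 and 143 counts for RRS1 and 1051, 248, 818 and 210 for NOP16).

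PES1, BOP1 and WDR12 form the PeBoW complex of 28S and 5.8S processing. PES1 was at 18.4 (DMSO), 8.29 (JQ1), 16.8 (DMSO + PHA) and 8.97 (JQ1 + PHA) FPKM, BOP1 had 22.3 and 15.4 FPKM in the DMSO libraries without and with PHA and 9.98 and 9.59 in the JQ1 libraries, and WDR12 had 13.5 (DMSO), 6.20 (JQ1), 12.4 (DMSO + PHA) and 5.96 (JQ1 + PHA) FPKM. Without PHA their log2 ratios lay together at -1.14, -1.15 and -1.11. With PHA they spread to -0.90, -0.68 and -1.05, and WDR12 alone stayed past 2-fold. LYAR, a zinc-finger nucleolar protein, had 60.6 and 48.2 FPKM in the DMSO libraries without and with PHA and 21.6 and 20.5 in the JQ1 libraries, a fall of 2.80-fold and 2.34-fold. PPAN (the human SSF1, ENSG00000130810, chr19:10106289-10111634) had 9.45 (DMSO), 4.06 (JQ1), 11.7 (DMSO + PHA) and 3.90 (JQ1 + PHA) FPKM, and NIP7 (ENSG00000132603, chr16:69339430-69343111), a small pre-rRNA binding protein, had 12.3 and 10.7 FPKM in the DMSO libraries without and with PHA and 5.98 and 3.43 in the JQ1 libraries. Both fell at least 2-fold in each comparison, and the log2 ratio with PHA was the lower one in PPAN (-1.20 and -1.56) and in NIP7 (-1.03 and -1.62). RRP1 and EBNA1BP2, factors of internal spacer processing and early 60S assembly, were past 2-fold without PHA only, with log2 ratios of -1.20 and -1.04 against -0.86 and -0.86.

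Among the 60S genes short of 2-fold in both comparisons, the nucleolar GTPase GNL3 (nucleostemin) had 51.3 (DMSO), 26.7 (JQ1), 47.4 (DMSO + PHA) and 25.6 (JQ1 + PHA) FPKM and was the closest, at -0.94 and -0.89. The 28S methyltransferase NOP2 had 9.22 and 6.99 FPKM in the DMSO libraries without and with PHA and 4.78 and 4.66 in the JQ1 libraries, with log2 ratios of -0.93 and -0.57. NOC3L and NOC2L, which act in a pair, had log2 ratios of -0.85 and -0.50 without PHA and -0.78 and -0.48 with it, so the members of this pair differed by more than their counting intervals (-0.96 to -0.76 and -0.59 to -0.41). The helicase DDX18 (ENSG00000088205, chr2:117814650-117832379) was at 32.4 (DMSO), 24.8 (JQ1), 32.4 (DMSO + PHA) and 25.7 (JQ1 + PHA) FPKM. The JQ1 levels lay below the DMSO levels by a narrow margin, and its log2 count ratios were -0.39 (-0.44 to -0.33) and -0.33 (-0.38 to -0.28). By mean ratio the 5 highest members of the set were UTP6 (0.01), UBTF (-0.23), UTP3 (-0.30), DDX18 (-0.36) and IMP3 (-0.40), which come from 3 of the 7 role groups.

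**Figure D3:**
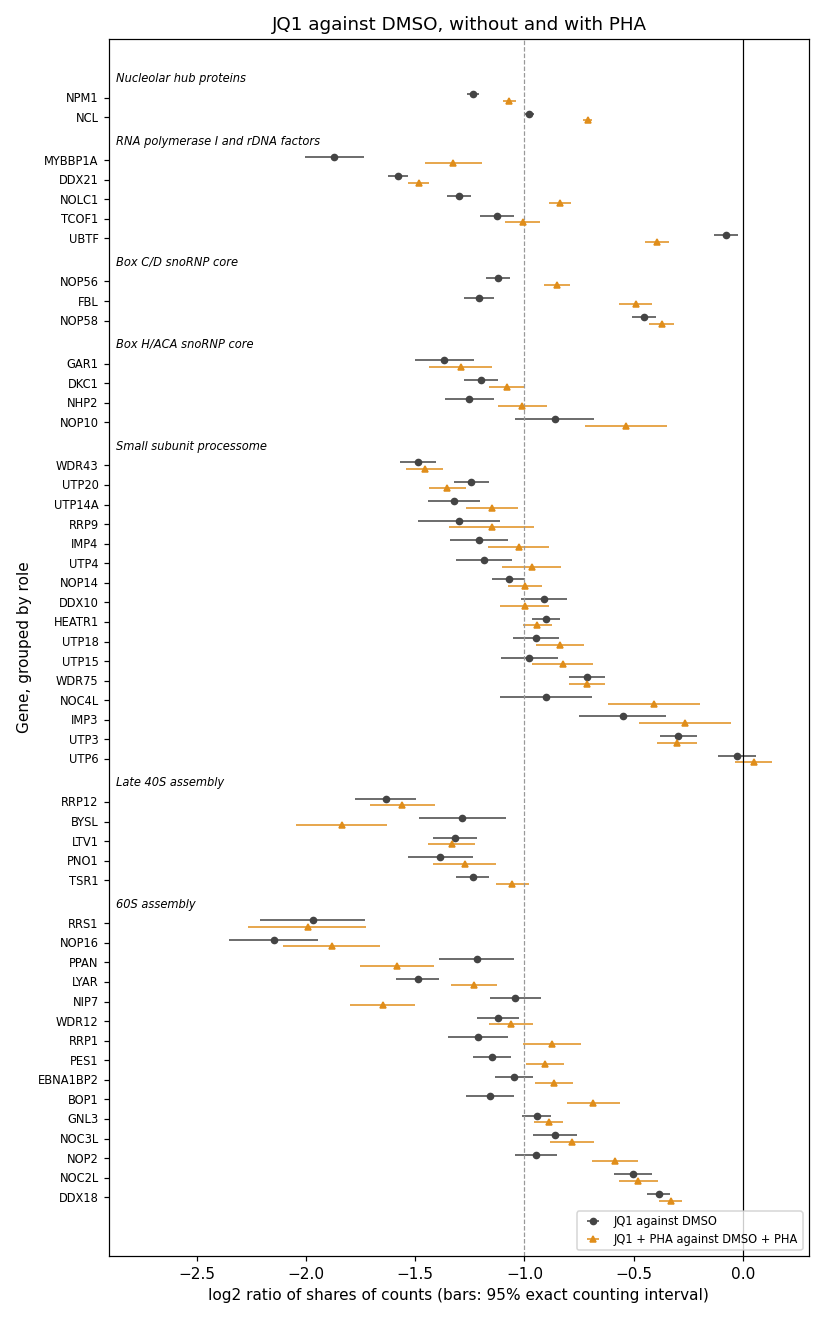
log2 ratio of shares of counts (horizontal axis) of the 50 members, grouped by role, for JQ1 against DMSO (grey circles) and JQ1 + PHA against DMSO + PHA (orange triangles), with bars for the 95% exact counting interval, a dashed line at 2-fold lower and a solid line at 0. Every bar but those of UTP6 lies to the left of 0, and the 5 late 40S genes have both points beyond the dashed line.

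The comparisons with and without PHA share no library, and across the 50 members their log2 FPKM ratios followed one another (Pearson's r = 0.843, Spearman's rho = 0.835), given as a description since genes are not independent replicates. The JQ1 effect with PHA minus that without had a median of 0.11 on the log2 scale and ran from -0.61 (NIP7) to 0.72 (FBL). Its counting interval lay above 0, a smaller fall with PHA, for 23 members, below 0 for 4, and held 0 for 23. This interval was computed for the members only, so no share of all genes can be set beside these counts. The counts also depend on the scaling. Scaling to a common FPKM total shifted the median of all genes by 0.07 without PHA and by 0.02 with it. Members with a bound near 0, such as NOP58 (0.001) and IMP3 (0.002), were therefore not resolved. After FBL, at 0.72 (0.62 to 0.82), the members with a smaller fall under PHA included MYBBP1A at 0.54 (0.36 to 0.73), NOC4L at 0.49 (0.20 to 0.78), BOP1 at 0.47 (0.31 to 0.64) and NOLC1 at 0.46 (0.39 to 0.54). The 4 with an interval below 0 were NIP7 at -0.61 (-0.79 to -0.42), BYSL at -0.55 (-0.84 to -0.27), PPAN at -0.36 (-0.60 to -0.12) and UBTF at -0.31 (-0.39 to -0.24). With the counts of the readthrough gene PPAN-P2RY11, whose exons PPAN shares, the interval of PPAN held 0, at -0.13 (-0.34 to 0.07). Without replicates these differences were not tested.

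With PHA by itself the differences in the members were small. Between the DMSO + PHA and the DMSO libraries 0 members differed by 2-fold in either direction, against 3.29% of all genes, and 1 differed by 1.5-fold, against 9.41%. That gene was FBL, 1.64-fold lower, with a log2 count ratio of -0.71 (-0.78 to -0.65). The small differences had mostly one sign, since 45 ratios lay below 0, against 51.1% of all genes, with UBTF, UTP20, BYSL, PNO1 and PPAN the exceptions, and the median was -0.13, but the signs of DDX18, DDX21 and UTP6, all near 0, changed with the scaling. The counting interval lay below 0 for 36 members, against 25.1%, and above 0 for 3, against 24.7%. These 3 were PPAN, with 0.31 (0.18 to 0.43) the highest, BYSL with 0.30 (0.16 to 0.45) and UBTF with 0.11 (0.05 to 0.16). After FBL the lowest was BOP1 with -0.53 (-0.63 to -0.43).

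In JQ1-treated cells PHA again moved 0 members by 2-fold, against 2.07%, and 1 by 1.5-fold, against 5.63%. That gene was NIP7, 1.72-fold lower, with a log2 count ratio of -0.80 (-0.96 to -0.64) and counts of 907 with JQ1 and 492 with JQ1 + PHA. Here 29 ratios lay below 0, against 50.9%, and the median was -0.03 beside 0.00 for all genes. The interval lay below 0 for 7 members, against 15.7%, which were NPM1, UBTF, UTP3, HEATR1, NOP14, DDX10 and NIP7. It lay above 0 for 6, against 15.6%, which were NCL, MYBBP1A, NOLC1, DDX21, PES1 and RRP1, with NOLC1 the highest at 0.35 (0.29 to 0.41). Scaling to a common FPKM total shifted the median of all genes by -0.0145 in this comparison. The lower bounds of NCL (0.0098), DDX21 (0.0108) and PES1 (0.0122) were smaller than that shift. The plot of PHA effects sets both treatments against each other.

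**Figure D4:**
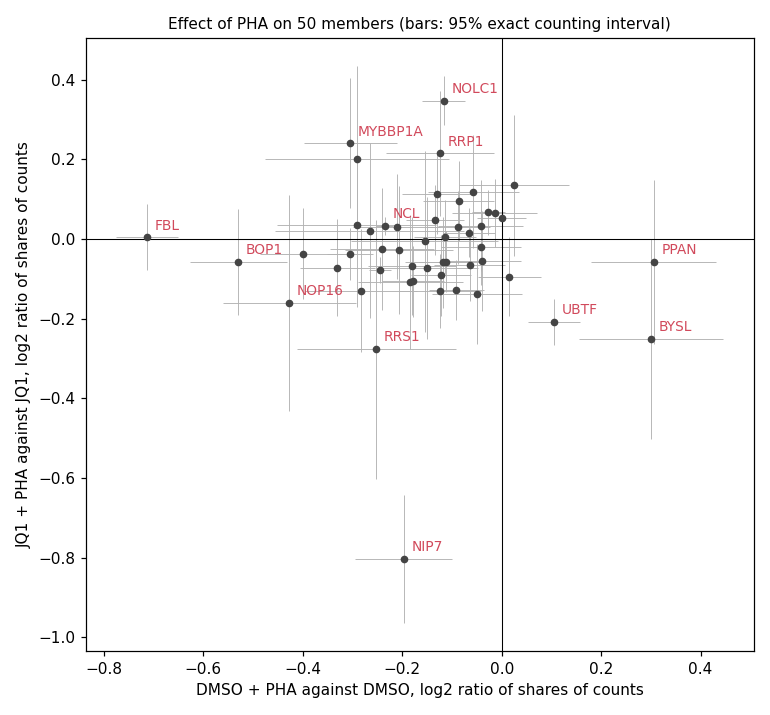
log2 ratio of shares of counts with against without PHA in DMSO-treated cells (horizontal axis) and in JQ1-treated cells (vertical axis), 1 point for each of the 50 members, with bars for the 95% exact counting interval and names for selected members. FBL stands alone on the left at -0.71, NIP7 alone at the bottom at -0.80, and most other points lie left of the vertical line and near the horizontal line.

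The wider pathway was examined through a list of 102 other ribosome biogenesis factors, all of which passed the filter on low values. Of these 25 fell at least 2-fold with JQ1 without PHA and 21 with it, and 0 rose in either, beside the shares of all genes given above. The median log2 ratios were -0.67 and -0.54, between those of the members and those of all genes, and 96 and 92 of 102 lay below 0. The lowest by mean ratio were UTP25 (listed in the files as DIEXF), MRTO4, a pre-60S factor related to the stalk protein P0, and NOB1, the nuclease that makes the end of 18S rRNA. UTP25 was at 5.97 (DMSO), 1.47 (JQ1), 5.11 (DMSO + PHA) and 1.504 (JQ1 + PHA) FPKM. MRTO4 had 36.9, 9.78, 32.9 and 10.99, and NOB1 had 23.6, 7.48, 21.5 and 6.90 in the same order. The highest were EXOSC6 (10.7, 12.9, 10.5 and 11.5) and DIS3 (10.1, 11.2, 10.9 and 11.4), both of the RNA exosome, and NOP9 (18.7, 21.3, 18.3 and 21.1), whose levels were all slightly higher with JQ1.

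Of 8 RNA polymerase I subunit genes, 4 fell at least 2-fold without PHA and 3 with it, with median log2 ratios of -0.93 and -0.73. The genes of the finished ribosome moved less. Of 82 cytosolic ribosomal protein genes past the filter 3 and 1 fell at least 2-fold, or 3.66% and 1.22%, below the 8.65% and 8.00% of all genes, and 0 rose in either comparison, with medians of -0.44 and -0.28. Of 76 mitochondrial ribosomal protein genes 16 and 5 fell, or 21.1%, above the share of all genes, and 6.58%, below it, and 1 rose in each comparison, with medians of -0.58 and -0.48. With PHA in DMSO-treated cells, the medians of these lists were -0.25 and -0.17, and that of the members was -0.13.

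Some members host snoRNA genes in their introns, so that the same transcript feeds protein and guide RNA. In GENCODE 44, 8 members (NCL, NOP56, NOP58, DKC1, WDR43, TSR1, PPAN and GNL3) held 27 snoRNA genes. Their median log2 ratios were -1.15 and -0.97, and those of the 42 others were -1.14 and -0.97. Hosts included both WDR43 (-1.48 and -1.45) and NOP58 (-0.45 and -0.37).

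Reads may be shared with other loci in 15 members, whose exons overlap those of another gene with at least 50 counts or which have pseudogenes with over 1% of their counts. The 45 loci named as NPM1 pseudogenes held 27432 counts in all libraries, beside 98468 for NPM1, and with them the log2 ratios of NPM1 were -1.24 and -1.06. NIP7 shares 18.4% of its merged exon length with COG8 on the opposite strand, and COG8 had log2 count ratios of -0.06 with PHA in JQ1-treated cells and -0.19 in DMSO-treated cells, where the count ratios of NIP7 were -0.80 and -0.20. UBTF overlaps ENSG00000260793 on the opposite strand over 3.51% of its length, and that locus had log2 count ratios of 2.57 and 2.75 with JQ1. Opposite-strand overlaps larger than that of NIP7 were those of IMP3 (31.7%, SNX33), NHP2 (28.0%, RMND5B), TSR1 (23.9%, SRR), HEATR1 (23.1%, LGALS8) and NOP14 (20.7%, NOP14-AS1). With JQ1, SNX33 had log2 count ratios of -1.21 without and -1.73 with PHA. In the same order RMND5B had 0.49 and 0.27, SRR 0.68 and 0.67, LGALS8 0.51 and 0.48, and NOP14-AS1 2.75 and 1.61. PPAN is also part of the readthrough gene PPAN-P2RY11, which had 538, 32, 768 and 116 counts, and the sum of both gave log2 ratios of -1.78 and -1.91. UTP14C, a retrotransposed copy of UTP14A, was at 14.6, 15.03, 15.4 and 14.4 FPKM in the 4 libraries. The strand setting of the counting is not given in the sources used here, and its part in these values was not tested. Among the 35 members without such overlaps 22 fell at least 2-fold without PHA and 13 with it.

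MYC, among whose targets genes of this kind are usually counted, had few counts in these libraries and more with JQ1. In the order DMSO, JQ1, DMSO + PHA and JQ1 + PHA, MYC (ENSG00000136997) had 106, 273, 162 and 454 counts, for 0.629, 1.55, 0.918 and 2.72 FPKM. The JQ1 libraries had more MYC counts than their controls, and reads shared with other loci were not examined for MYC. HEXIM1 (ENSG00000186834), which BET inhibitors are known to raise, had 36.2, 108.5, 34.6 and 104 FPKM in the same order, with log2 ratios of 1.58 and 1.59. With 4 libraries no relation between MYC and the members was computed, and its part in the result was not tested.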

How the data were processed

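RNA was extracted from Jurkat cells with TRIzol and sequenced on an Illumina HiSeq2500, 1 library per condition. The paper names a stranded VAHTS mRNA kit and the labels a universal one. Alignment by the authors was to GRCh38, with Hisat2 2.0.4, and the submitters' processing notes also name TopHat2 2.0.9 and Cufflinks 2.1.1, with no role. The authors deposited raw read counts per gene and, beside them, FPKM, which the paper defines by exon length and mapped reads. The counter, strand setting and annotation release are not given in the sources used here. The gene length behind the FPKM, found from the counts, was above the span of the locus in 5 members (NOP56, IMP4, NOP2, NOP16 and NIP7), which leaves ratios within a gene as they are. Levels between genes were therefore set side by side per kb of merged exons of GENCODE 44, which itself depends on the exons annotated.

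For each pair of libraries the log2 ratio of FPKM + 0.1 was taken over 11503 genes whose FPKM averaged at least 1, with calls at 2-fold. The added 0.1 understates the change of low genes. For single genes the log2 ratio of count shares was given with a 95% exact (Clopper-Pearson) interval, for counting error only. The difference of JQ1 effects was given with an interval from the Poisson variances of the 4 log counts. At these depths 3 counts are 0.152 to 0.161 CPM. With 1 library per condition no test was made.

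The members and lists were chosen with earlier results of these data known. Named with their levels were the 5 lowest and 5 highest members by the mean of both JQ1 ratios, the largest rise and fall with PHA in DMSO-treated and JQ1-treated cells, NCL, NPM1 and the core snoRNP proteins, and beside the members MYC, HEXIM1 and the 3 lowest and 3 highest other biogenesis factors. Further members were described by role. Of 102 other factors 98 were matched by symbol and 4 by identifier. Promoter windows were those of RefSeq on GRCh38.p14.

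Other settings tried were the filter on low values, the pseudocount, the 1.5-fold threshold, scaling by edgeR 4.0.16 TMM factors, by DESeq2 1.42.0 size factors or to a common FPKM total, centring on the median gene, protein-coding genes only, and a total without mitochondrial genes. Leaving out members with shared exons or pseudogenes, and levels per kb of merged exons, were added after seeing the data. One planned marker gene is not reported here, and its list was summed without it. Calls and intervals were tried on simulated data with counting error only and with larger changes than the median of the members. That simulation says nothing of the spread between cultures. Work was done in R 4.3.3 and in Python 3.11.15 (scipy 1.17.1, pandas 2.3.3, numpy 2.4.6, matplotlib 3.10.9).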

Additional observations from a re-analysis of the deposited data

Results flagged for a closer look

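In 6 members the PHA effect pointed one way in DMSO-treated cells and the other way in JQ1-treated cells, with both counting intervals away from 0. The share of all genes with this pattern was not computed, so it is not shown to be particular to the set. With 1 library per condition the difference was not tested. Given as the log2 effect of PHA in JQ1-treated cells minus that in DMSO-treated cells, the difference was 0.54 for MYBBP1A, 0.46 for NOLC1, 0.34 for RRP1, 0.27 for NCL and 0.24 for PES1, all of which had less signal with PHA in DMSO-treated cells and more in JQ1-treated cells. For UBTF, which had the opposite signs, it was -0.31. These values equal the JQ1 effect with PHA minus that without, described above, and are no separate observation. In NCL the effects were small, -0.24 (95% counting interval -0.25 to -0.22) and 0.03 (0.01 to 0.06). In MYBBP1A they were -0.30 (-0.40 to -0.21) and 0.24 (0.08 to 0.40). Scaling to a common FPKM total shifted the median of all genes by -0.0145 in JQ1 + PHA against JQ1. The lower bounds there were 0.0098 for NCL and 0.0122 for PES1, smaller than that shift. For NCL and PES1 an interval away from 0 in JQ1-treated cells thus rests on the scaling.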

How the results depend on the processing

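The 6 counts of the members were recomputed under 13 settings and their 4 medians under 12. Of these 126 values 119 lay within a set tolerance of the value reported, which was 1.5 times for a count and, for a median or a single ratio, as much as the width of its 95% counting interval divided by 2 (for a median, that of the median bounds of the members). Within that tolerance counts still differed, as the ranges below and the 43 members lower with JQ1 without PHA at 1.5-fold show. The 119 overstate how far the results were tried. No member was lost or gained without the filter on low values or with protein-coding genes only, so these settings could not move any value. Counts of members at least 2-fold higher with JQ1, or differing 2-fold with PHA, were reported as 0. They stayed 0 at every setting with the 2-fold threshold, so their agreement adds little. With a pseudocount of 1 the median log2 ratios with JQ1 were -1.04 without and -0.87 with PHA. At 1.5-fold, 39 members were lower with JQ1 in the PHA-treated pair, and 1 differed with PHA in DMSO-treated and 1 in JQ1-treated cells. Without the 15 members with shared exons or pseudogenes, which is an alternative chosen after seeing the data and leaves 35 genes, 13 fell at least 2-fold with JQ1 in the PHA-treated pair and their median was -0.86. Over the settings that kept the 2-fold threshold, the members lower with JQ1 numbered 22 to 32 without PHA and 13 to 23 with it, and 0 members rose. The low ends of 22 and 13 are out of these 35 genes. Among settings with all 50 members the lowest counts were 29 without PHA and 18 with it. Of 2668 further values (role groups and single members), 2613 lay within that tolerance, 55 moved further and 0 of those past 2-fold changed sign. Leaving out the filter or keeping protein-coding genes only could not move these values either. Signs of ratios near 0 turned under a scaling for UTP6 with JQ1, for DDX18, DDX21 and UTP6 with PHA in DMSO-treated cells, and for DKC1, FBL and RRP9 with PHA in JQ1-treated cells. No scaling moved the median of all genes by more than 0.07. No paired analysis was possible because each condition had 1 library and no replicate numbers were shared between groups; a fit that takes the libraries with and without PHA as 2 pairs would assume 1 JQ1 effect for both and was not run. Depth limits the genes with few counts, such as IMP3, NOP16 and RRS1.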
